A study of Danio rerio with 6 samples.

Results

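Crystallins are the soluble proteins that fill the fibre cells of the eye lens and give it its transparency and refractive power. Among 32520 genes in the deposited count table, 56 were lens crystallin genes by name: 3 alpha (names starting crya), 13 beta (cryba and crybb) and 40 gamma (cryg), of which 20 rows were tandem copies of crygm2d. The crybg genes, 3 rows of related proteins, were left out. Messenger RNA (stranded TruSeq libraries) was sequenced from zebrafish (Danio rerio) larvae aged 3 days. The material is described as whole heads, of which the lens is a small part. The 3 libraries of one group came from larvae homozygous for srrm4[y712]. That is a mutant allele, carried in the whole animal, of a neural microexon splicing regulator. The 3 of the other came from their wild-type siblings at the same stage, and the labels name no other allele or treatment. The labels do not say how many heads went into a library or whether the replicates were separate clutches, so a p-value here measures the spread between these libraries, part of which may be technical. Total counts ranged from 52510621 to 101032166 per library. Srrm4 itself was read at 14.6, 53.6 and 55.1 CPM (a count scaled to the library's normalized size in units of 1e6) in the wild-type replicates and at 18.7, 58.7 and 57.9 CPM with the mutation, so its gene-level count does not check the genotype labels.

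Alpha crystallins are small heat shock proteins that act as chaperones and keep other lens proteins soluble. Beta and gamma crystallins share a fold built of Greek key motifs and make up most of the structural protein of the lens. Fish carry a large family of gamma M crystallins, rich in methionine, which pack the dense fish lens. Crystallin genes are switched on as lens cells turn into fibre cells, under transcription factors such as Pax6, Maf, Prox1 and Hsf4. Because mixed tissue and not the lens alone was sequenced, fewer lens cells and less crystallin RNA per cell cannot be told apart in any value below.

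Lens genes outside the crystallin family were read in all 6 libraries, so lens tissue was part of the material sampled. The water channel genes of the fibre membrane, mipa and mipb, had 105 to 190 and 149 to 211 CPM. The beaded filament gene bfsp2, which encodes a cytoskeletal protein of fibre cells, had 188 to 329 CPM. A list of 34 lens genes was used for comparison, of which 32 matched 1 gene each and all 32 passed the filter on low counts.

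Of all counts, crystallins took 2.86%, 2.415% and 2.43% in the wild-type libraries (replicates 1 to 3) and 2.95%, 2.41% and 2.36% in the mutant libraries. The widest 95% Wilson interval of these shares, that of mutant replicate 1, ran from 2.95% to 2.96%, and such intervals cover counting error only. Both replicate 1 libraries were the highest of their genotype, and the genotypes overlapped. The 20 crygm2d copies supplied 45.9% to 50.8% of the crystallin reads and the 13 beta genes 41.1% to 45.3%, whereas the 3 alpha genes supplied 0.106% to 0.234%. CPM is not corrected for transcript length, so such figures compare reads and not numbers of transcripts between genes.

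The family fell into genes with very many reads and genes with very few. In mean CPM over all 6 libraries, 31 of the 56 stood above 100 CPM, 5 between 10 and 100 CPM and 20 below 10 CPM, 13 of these below 1 CPM. The split at 100 CPM was set after the values were seen: the lowest gene above it was crygm2d9 at 183 CPM and the highest below it was cryaa at 42.1 CPM. Ranked by reads among all genes of the table, 8 crystallins were in the first 100 and 24 in the first 250, led by crybb1 at rank 39.

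**Figure D1:**
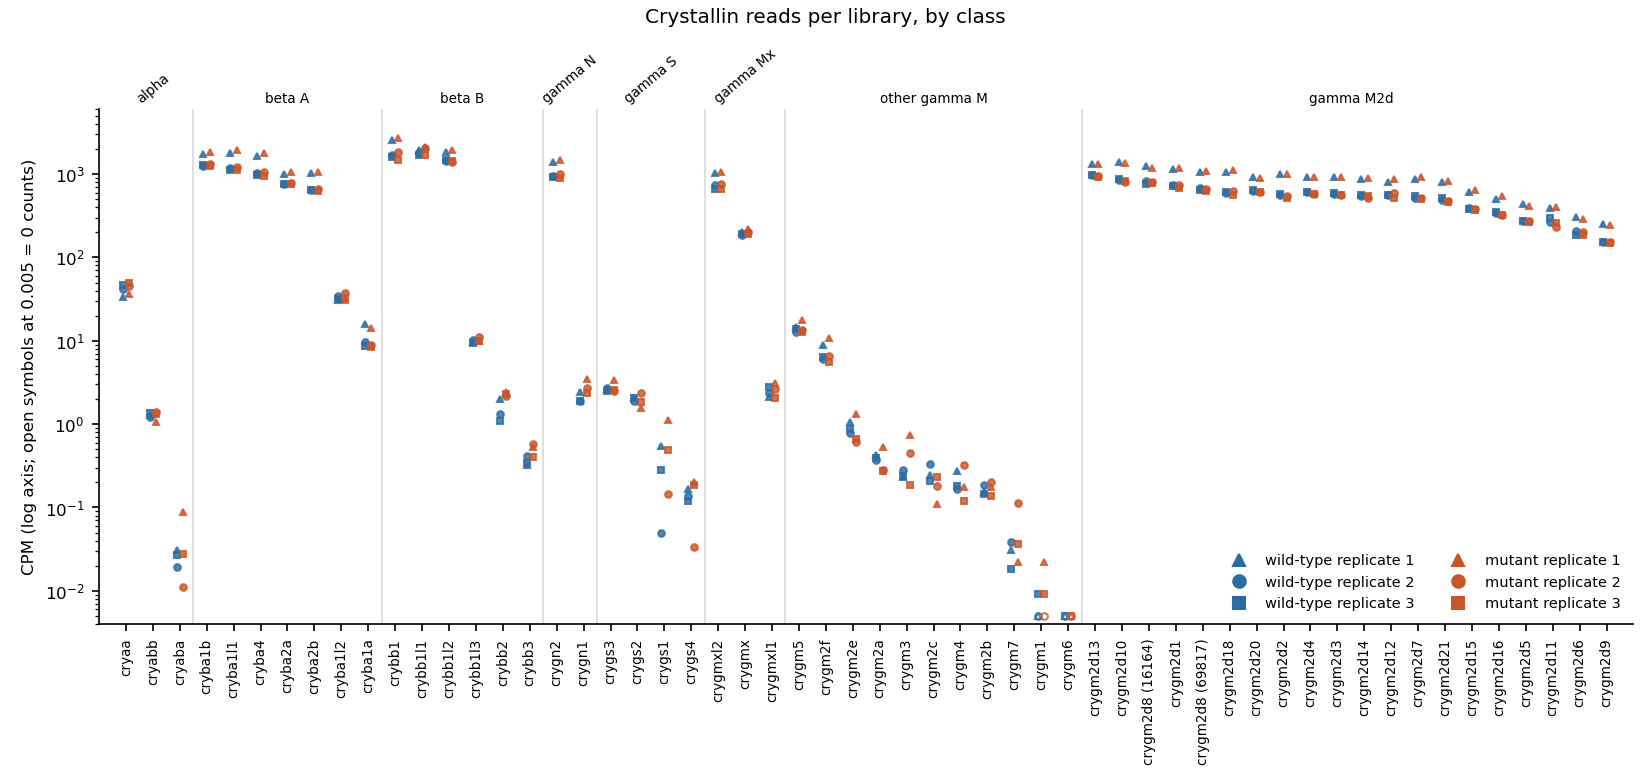
Level of each of the 56 crystallin genes in each library, in CPM on a log axis, ordered by class and then by mean level; colours mark genotype and symbols the replicate number, and open symbols at 0.005 are libraries with 0 counts. All 20 crygm2d copies lie between 149 and 1389 CPM in every library, while the genes of the panel of other gamma M crystallins lie at 17.8 CPM or lower.

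Among alpha, beta and gamma crystallins the alpha genes had the fewest reads, with sums of 35.2 to 50.1 CPM. Cryaa (ENSDARG00000053502), the alpha A chaperone of the lens, measured 33.9, 41.6 and 47.15 CPM in wild-type replicates 1, 2 and 3 and 36.1, 44.9 and 48.8 CPM in mutant ones. The ranges of the genotypes overlapped, and replicate 1 was the lowest of each. Cryabb, an alpha B gene that in zebrafish is also expressed outside the lens, ranged over 1.23 to 1.37 CPM without and 1.06 to 1.40 CPM with the mutation. Cryaba, the other alpha B gene, had 1 to 4 counts in every library and did not pass the filter. The annotated span of cryaa overlaps that of hsf2bp, which had at most 0.27 CPM, and that of cryabb overlaps hspb2, at 1.45 to 6.77 CPM.

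Of the beta crystallins, 8 of 13 exceeded 100 CPM. Crybb1 (ENSDARG00000068507), a beta B crystallin of fibre cells, measured 2561, 1695 and 1588 CPM in the wild-type replicates and 2733, 1828 and 1493 CPM in the mutant replicates. Crybb1l1 (ENSDARG00000007576), a related gene, measured 1955, 1811 and 1710 CPM against 2096, 2037 and 1696 CPM. The 2 genotypes overlapped for both genes. Crybb1l2 had 1403 to 1928 CPM and the beta A genes cryba1b, cryba1l1 and cryba4 had 1233 to 1821, 1106 to 1934 and 953 to 1768 CPM over the 6 libraries. At the low end were crybb2, described below, and crybb3, at 0.321 to 0.582 CPM.

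The RefSeq annotation of the GRCz12tu assembly was used here for gene order and for all overlaps of annotated spans. The submitters' notes list GRCz11, and overlaps in the annotation used for counting were not checked. In the RefSeq annotation 4 beta A genes are immediate neighbours of 4 beta B genes, and the members of these pairs did not always share a level. On chromosome 10 crybb1 (mean 1983 CPM) lies beside cryba4 (1242 CPM), and on chromosome 14 crybb1l1 (1884 CPM) lies beside cryba1l1 (1392 CPM), so both members were high. On chromosome 15 cryba1a (11.02 CPM) and crybb1l3 (10.1 CPM) were both low. Their spans overlap, so reads of one may have been counted for the other. On chromosome 1 crybb1l2 had 1583 CPM and its neighbour cryba1l2 had 32.9 CPM.

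The gamma N and gamma S genes differed widely within each class. Gamma N crystallins are placed between the beta and gamma families by their structure. Crygn2 had 889 to 1467 CPM over the 6 libraries, and crygn1 1.87 to 3.52 CPM. Gamma S crystallins, a gamma class kept across vertebrates, all had few reads at this age: crygs3 had 2.47 to 3.41, crygs2 1.57 to 2.34, crygs1 0.0487 to 1.13 and crygs4 0.0335 to 0.200 CPM.

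Gamma M genes ranged from no reads to over 1000 CPM. In a block on chromosome 9 only the crygm2d copies were high, so place and type of gene cannot be told apart there. That block, in the same annotation, holds 33 crystallin genes with 4 other protein-coding genes among them, and 35 of the 56 crystallins lie on chromosome 9 in all. All 20 crygm2d copies stand together in the middle, from crygm2d13 to crygm2d1, with mean levels of 183 to 1078 CPM. Before them come crygm7, crygm6, crygm1, crygm2c, crygmxl1, crygm2b, crygm2a and crygm2e, each at 2.52 CPM or lower. After them come crygm2f at 7.41 CPM, crygm5 at 14.3 CPM, crygm3 and crygs4 at 0.352 and 0.140 CPM, and crygs3 at 2.72 CPM. Between the neighbours crygm2e and crygm2d13 the mean went from 0.888 to 1078 CPM, and between crygm2d1 and crygm2f from 869 to 7.41 CPM.

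**Figure D2:**
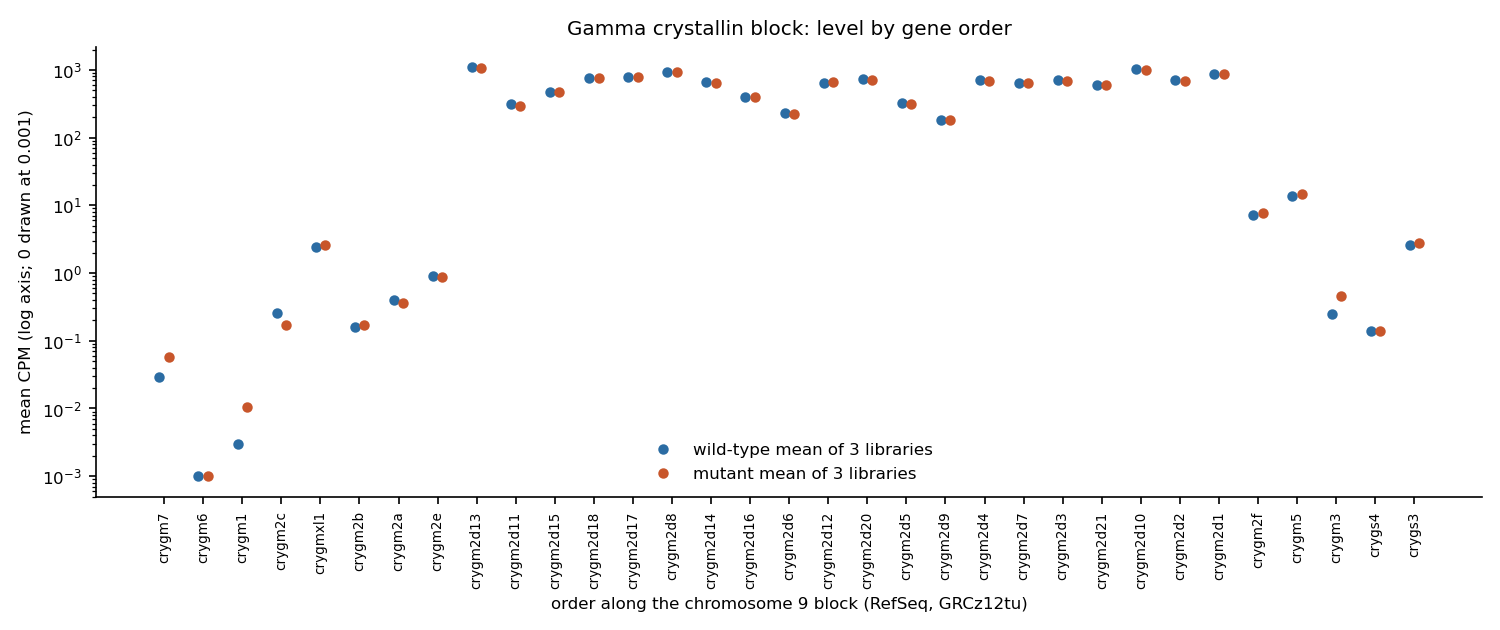
Mean CPM of 3 libraries per genotype, on a log axis, for the 33 crystallin genes of the chromosome 9 block in their annotated order; a mean of 0 is drawn at 0.001. The 20 crygm2d copies in the middle lie at 181 CPM or higher in both genotypes, and every gene on either side lies at 14.7 CPM or lower.

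Within the crygm2d copies the most-read gene, crygm2d13 (ENSDARG00000057460), measured 1331, 968 and 965 CPM in the wild-type replicates and 1334, 942 and 929 CPM in the mutant replicates. The least-read copy, crygm2d9, had 149 to 250 CPM over the 6 libraries. Between them crygm2d10 had 809 to 1389 CPM and crygm2d1 672 to 1195 CPM. A pair of rows carried the name crygm2d8: ENSDARG00000116164 had 770 to 1249 CPM and ENSDARG00000069817, named crygm2d17 in the reference name table, had 621 to 1078 CPM. Tandem copies can be alike in sequence, which was not compared here, so reads may have been split between them or dropped. The level of any single copy is therefore less certain than their sum. Summed, they had 16870, 10780 and 10820 CPM in wild-type replicates 1, 2 and 3 and 17070, 10540 and 10230 CPM in mutant ones. The gene crygm6 had 0 counts in all 6 libraries, which allows up to 0.0272 CPM in the deepest library and 0.0665 CPM in the shallowest, and crygm1 had at most 1 count in any; both, with crygm7 and cryaba, make up the 4 members that did not pass the filter.

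Outside chromosome 9, crygm4 on chromosome 6 had a mean of 0.207 CPM, and crygmx and crygmxl2 are neighbours on chromosome 12. Crygmxl2 had 662 to 1058 CPM and crygmx 187 to 221 CPM, while crygmxl1, in the chromosome 9 block, had 2.07 to 3.15 CPM.

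Between replicates the abundant crystallins differed more than between genotypes, in both genotypes alike. Replicate 1 was above the mean of replicates 2 and 3 in 44 of 52 tested members, where 48.9% of all 24765 genes tested were higher. All 31 members above 100 CPM were higher in replicate 1, with log2 ratios of 0.14 to 0.88 and a median of 0.66. These 31, and so the 44, include all 20 crygm2d copies, which may share reads and cannot be taken as independent. Over 2-fold differences were rare among the members: 1 of 52, crygs1, was over 2-fold higher in replicate 1 and 0 were over 2-fold lower, against 6.72% and 7.15% of all genes tested. The 20 crygm2d copies had a median log2 ratio of 0.69 and the 13 beta genes of 0.42; scaled by library totals alone these medians were 0.36 and 0.10, and that of the 6 beta B genes turned from 0.27 to -0.06.

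The other 8 tested members were lower in replicate 1, and the beta genes were uneven. Cryaa was lower in replicate 1, at a log2 ratio of -0.38, and cryabb and cryba1l2 stood at -0.18 and -0.16. Crybb1 had a ratio of 0.68 and crybb1l1 one of 0.16, although both are beta B genes with a similar number of reads. With library totals as the only scaling the median of all genes tested moved from -0.02 to -0.34, and that of the members from 0.60 to 0.28. Under that scaling 38 of 52 members were higher in replicate 1. The sign turned for 6 members, crybb1l1, crygmx, crygmxl1, crygm4, crygm5 and crygs3.

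Other lens genes, taken as a list, were not higher in replicate 1, and their values went both ways. Their summed level was 1604, 1762 and 1787 CPM in wild-type and 1618, 1855 and 1716 CPM in mutant replicates, and 13 of 32 were higher in replicate 1 with a median log2 ratio of -0.16. Scaled by library totals alone, 7 of 32 were higher and the median was -0.48. The cytoskeletal genes bfsp1 and bfsp2 stood at 0.90 and 0.73 and the lens transcription factor hsf4 at 0.69. The water channel genes mipa and mipb stood at -0.77 and -0.42, and the eye patterning genes pax6a and pax6b, which the retina and brain also express, at -1.08 and -1.52. Among the 13 higher were also lgsn (0.44) and gja3 (0.27), and among the 19 lower six3a (-0.94) and prox1a (-0.70). Pax6a and pax6b had 78.7 and 56.7 CPM in wild-type replicate 1 but 170 and 157 CPM in wild-type replicate 2. The lower sum of replicate 1 thus depended in part on these 2 genes.

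Markers of other tissues differed between the same libraries. The 23 posterior hox genes, which mark trunk and tail, reached a sum of 120 and 135 CPM in replicate 1, where none was at 0, and of 14.6 to 21.8 CPM elsewhere, where 1 to 4 of them were at 0. Skeletal muscle markers, 15 genes, summed to 59170 and 59390 CPM against 11690 to 19750 CPM, with 12 higher in replicate 1 and 3 lower, the titin genes ttn.1 and ttn.2 and 1 of 2 genes named myhz1.1. Surface epithelium markers, 7 genes led by the keratin gene krt4 and sharing pax6a with the lens list, summed to 19120 and 19250 CPM against 10100 to 11490 CPM. Krt4 and krt5 made up most of that sum, and 4 of the 7 were higher in replicate 1 while pax6a, aldh3a1 and tp63 were lower. Retina markers, 18 genes, summed to 2580 and 2742 CPM in replicate 1 and 3694 to 5751 CPM elsewhere. The material of every library is described as whole heads, and whether the replicate 1 libraries also held trunk or tail tissue was not tested. The part of tissue composition in the crystallin difference was not tested either.

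**Figure D3:**
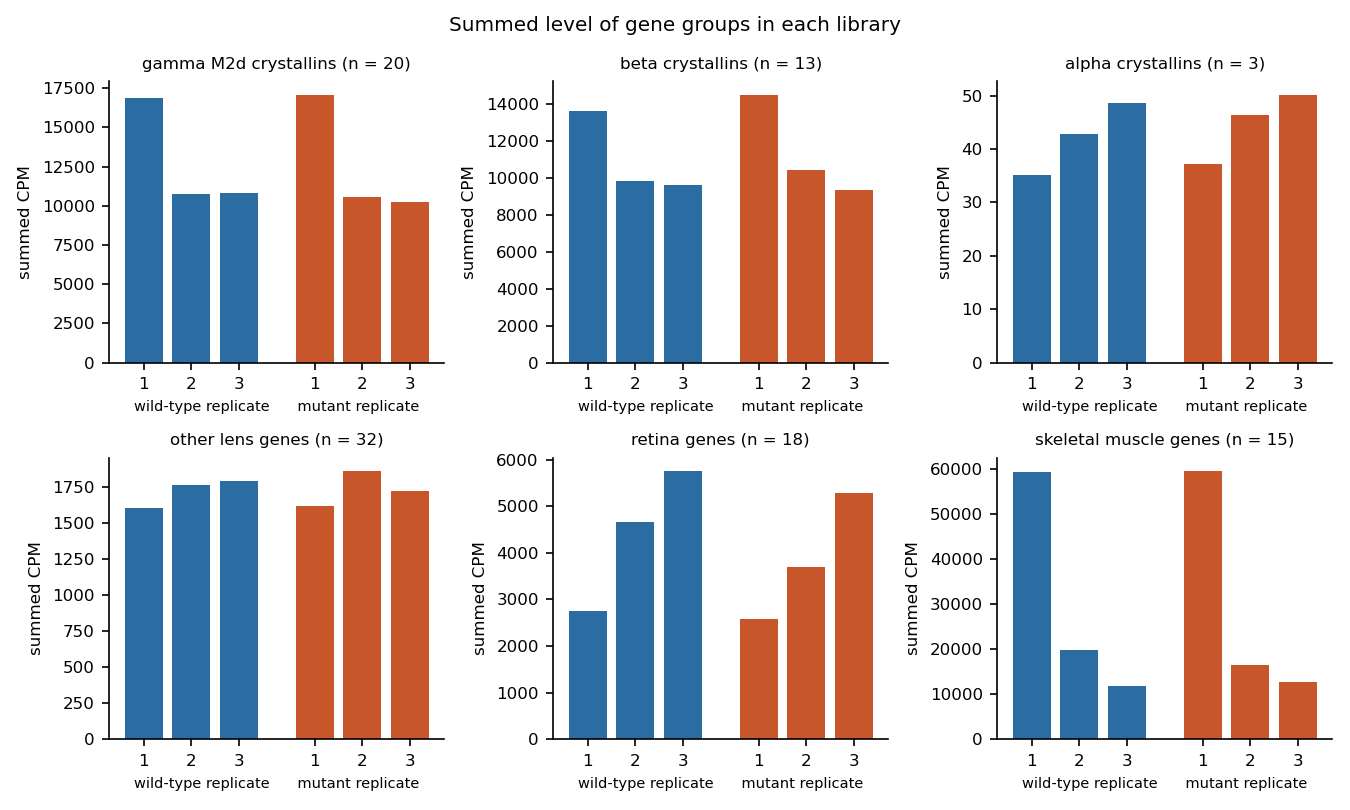
Summed CPM of 6 gene groups in each library, with bars from 0, wild-type in blue and mutant in red; each panel has its own scale. The crygm2d and beta crystallins are highest in both replicate 1 libraries, the alpha crystallins and retina genes are lowest there, and muscle genes stand at 59170 and 59390 CPM there.

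The comparison the study was made for, mutant against wild-type, showed no crystallin gene past the threshold. Differences were tested in edgeR with a quasi-likelihood F test across all genes, and a gene passed with a Benjamini-Hochberg adjusted p under 0.05. None of the 52 members tested passed, as none of all 24765 genes did (0%). At an unadjusted p under 0.05 there was 1 member, crybb2, where 0.283% of all genes reached that level. DESeq2 and limma-voom also called 0 members. With the replicate number as a block edgeR again called 0 members, with 3 members at an unadjusted p under 0.05, all higher in the mutant, against 4.6% of all genes (2% higher and 2.6% lower). DESeq2 with the block called 0.0686% of all genes and no member. The median log2 fold change of the 52 was 0.012, beside 0.00041 over all genes tested, and 28 were higher and 24 lower. With the block the median was 0.0021 and 26 were higher and 26 lower.

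For the abundant crystallins the intervals on any difference were narrow only once replicate numbers were paired. The labels do not state that pairing, which was adopted from correlations between these same libraries. Over the 31 members above 100 CPM the blocked log2 fold changes ran from -0.12 to 0.09, and the 95% intervals of all 31 lay between -0.25 and 0.19. Without the block the estimates ran from -0.10 to 0.09 with standard errors of 0.15 to 0.39, since the replicate 1 difference enters that spread. The 20 crygm2d copies summed to 1 row had a log2 fold change of -0.03 (SE 0.032) with the block, with a 95% interval of -0.11 to 0.04. With genotype as the only term the value was -0.02 (SE 0.43), with a 95% interval of -1.06 to 1.01.

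The members with many reads had values of a like size. Crybb1 had a blocked log2 fold change of 0.04 (SE 0.046), crybb1l1 of 0.09 (SE 0.042), crybb1l2 of -0.01 (SE 0.038) and cryba1b of 0.03 (SE 0.038). Crygn2 stood at 0.03 (SE 0.041), crygm2d13 at -0.03 (SE 0.033), crygm2d10 at -0.06 (SE 0.033), crygm2d1 at -0.02 (SE 0.037) and crygm2d8 (ENSDARG00000116164) at -0.03 (SE 0.036). The estimate farthest from 0 among the copies was that of crygm2d11, at -0.12 (SE 0.054). Cryaa, which was higher in the mutant in all 3 pairs by 0.09, 0.11 and 0.05, stood at 0.08 (SE 0.042) with a 95% interval of -0.02 to 0.18. The edgeR adjusted p with the block was 0.939 or higher for every member.

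By class, 12 of 13 beta genes and 15 of 37 tested gamma genes were higher in the unblocked fit, with median log2 fold changes of 0.05 and -0.01, and 17 of the 20 crygm2d copies were lower with a median of -0.03. Over all genes tested 12430 of 24765 were higher. The copies may share reads, so their signs, which also enter the gamma counts, cannot be taken as independent of each other. With the block 11 of 13 beta genes, 14 of 37 gamma genes and 2 of the 20 copies were higher, with medians of 0.05, -0.02 and -0.04. In pairs 1, 2 and 3 the beta medians were 0.085, 0.073 and -0.018, and 4 of the 13 beta genes were higher in all 3 pairs. The medians of the copies in these pairs were 0.015, -0.042 and -0.082, so neither class kept its sign in every pair. The unblocked medians depended on single libraries: that of the beta genes was -0.04 without wild-type replicate 2 or 3 and -0.16 without mutant replicate 1, and 0.21, 0.12 and 0.175 without wild-type replicate 1 and mutant replicates 2 and 3. That of the crygm2d copies was 0.22, 0.10 and 0.09 without wild-type replicate 1 and mutant replicates 2 and 3, and -0.14, -0.13 and -0.31 without wild-type replicates 2 and 3 and mutant replicate 1. Taken pair by pair, 8 of the 52 members were higher and 5 were lower in the mutant in all 3 pairs, against 13.1% and 13.8% of all genes. The retina list had a median log2 fold change of -0.16 in the blocked fit, beside 0.0021 for the crystallins and 0.015 for the other lens genes. In that fit 0 of the 18 retina genes passed, and 8 had an unadjusted edgeR p under 0.05, all lower, against 2.6% of all genes. Markers of a tissue can vary together, so the 8 cannot be taken as independent. Without the block 0 of the 18 had an unadjusted edgeR p under 0.05, against 0.283% of all genes. The retina medians in pairs 1, 2 and 3 were -0.09, -0.27 and -0.07. The difference between these lists was not tested.

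**Figure D4:**
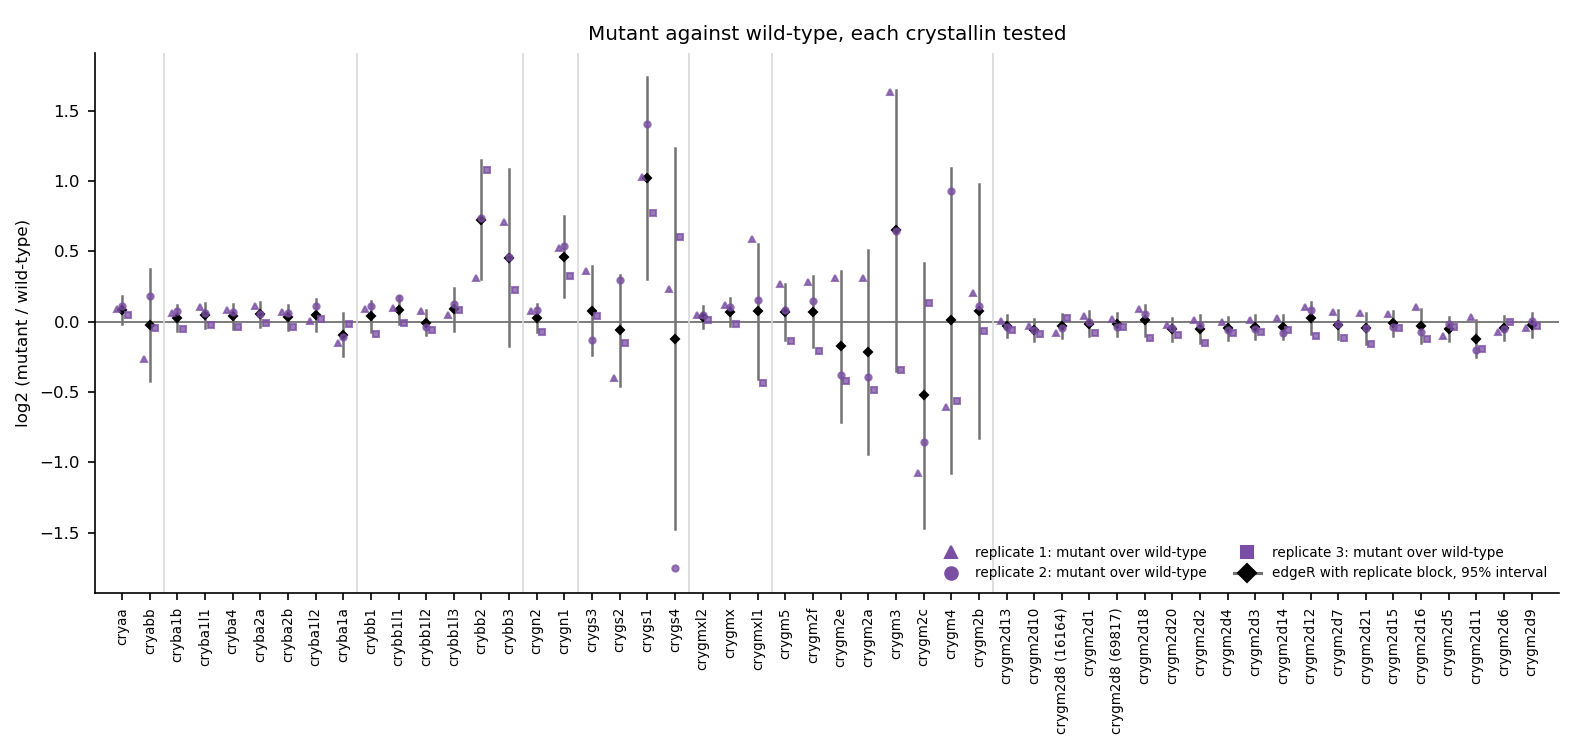
Log2 ratio of mutant to wild-type for the 52 crystallins tested; purple symbols are the 3 same-numbered pairs, black diamonds the blocked edgeR estimate and grey lines its 95% interval. The intervals of genes above 100 CPM lie between -0.25 and 0.19, and the widest intervals belong to genes under 1 CPM, such as crygs4, crygm2c and crygm3.

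Crybb2 (ENSDARG00000053512), a beta B crystallin that in mammals is abundant in the lens after birth, was the member with the smallest p in both fits. It measured 1.99, 1.31 and 1.08 CPM in wild-type replicates 1, 2 and 3 and 2.46, 2.18 and 2.295 CPM in mutant ones, from 111 to 249 counts a library. The 3 mutant libraries lay above the 3 wild-type libraries, and it was the only tested member without overlap of the groups; over all genes 1.09% had the mutant higher without overlap and 0.945% had it lower. Means were 1.46 ± 0.47 CPM for wild-type and 2.31 ± 0.14 CPM for mutant libraries (SD, n = 3 for both). In log2 terms the mutant differed by 0.67 (SE 0.26, edgeR adjusted p 1) and 0.72 (SE 0.18, edgeR adjusted p 0.939) with the block. The pairs gave 0.31, 0.735 and 1.08. Its annotated span overlaps that of kazald3, which had 3.71 to 9.23 CPM and a blocked log2 fold change of 0.04 (SE 0.097).

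Crygn1 (ENSDARG00000102129) measured 2.44, 1.87 and 1.87 CPM in the wild-type replicates and 3.52, 2.72 and 2.34 CPM in the mutant replicates. The mutant was higher in each pair, by 0.53, 0.54 and 0.32 on the log2 scale, and the groups overlapped since wild-type replicate 1 exceeded mutant replicate 3. The log2 fold change was 0.47 (SE 0.23, edgeR adjusted p 1) and 0.46 (SE 0.12, edgeR adjusted p 0.939) with the block. Its annotated span overlaps that of ly97.3, for which no value was matched.

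Crygs1 (ENSDARG00000042992) had 36, 5 and 31 counts in the wild-type and 51, 13 and 53 counts in the mutant replicates, or 0.550, 0.0487 and 0.281 CPM against 1.13, 0.145 and 0.488 CPM. It was again higher in each pair, by 1.03, 1.40 and 0.77, while its level differed more between replicates than between genotypes. The blocked log2 fold change was 1.02 (SE 0.30, edgeR adjusted p 0.939), and 0.99 (SE 0.97) without the block. Without mutant replicate 1 the unblocked value was 0.17 and without wild-type replicate 1 it was 1.76. Crybb2, crygn1 and crygs1 all had few reads, with mean levels of 2.46 CPM or lower.

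**Figure D5:**
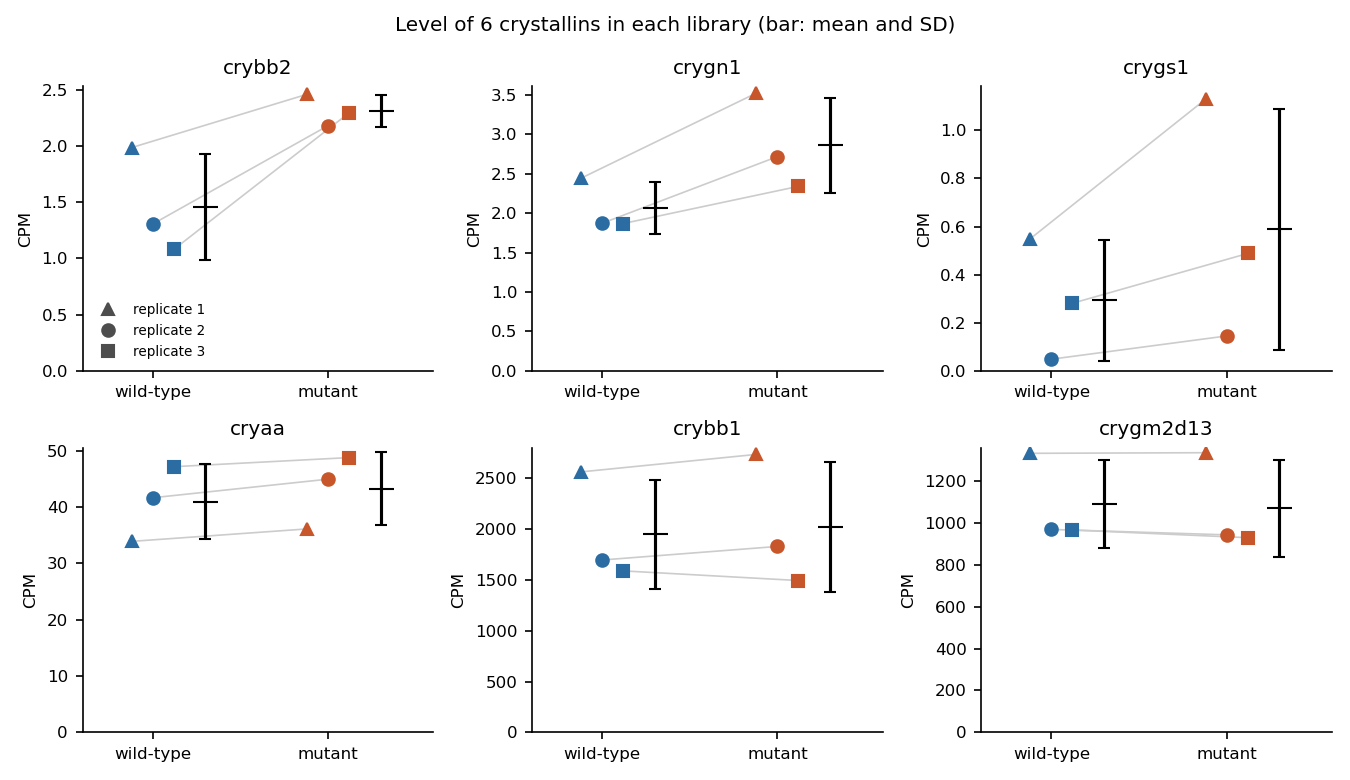
CPM of 6 crystallins in each library, on axes from 0, with grey lines joining libraries of the same replicate number and black bars giving the mean and SD of 3 libraries. Crybb2, crygn1, crygs1 and cryaa are higher in the mutant library of each pair, as are 13.1% of all genes tested. Crybb1 is higher in 2 of 3 pairs, and the pairs of crygm2d13 stand at 0.0035, -0.04 and -0.06 on the log2 scale.

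The other low members gave wide intervals. Crybb3 stood at 0.46 (SE 0.26) in the blocked fit, crygm3 at 0.65 (SE 0.42) and crygm2c at -0.52 (SE 0.40), from 5 to 52 counts a library. Crygm3 and crygs4 overlap in their annotated spans, so their reads may be shared. Among the gamma S genes crygs3 stood at 0.08 (SE 0.13), crygs2 at -0.06 (SE 0.17) and crygs4 at -0.12 (SE 0.57), and the alpha B gene cryabb at -0.02 (SE 0.17). The interval of crygs4, for example, ran from -1.47 to 1.23 and that of crygm2c from -1.465 to 0.42.

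Of the 32 other lens genes 0 passed the edgeR test, as 0% of all genes tested did. At an unadjusted edgeR p under 0.05 there were 0 of the 32 with or without the block. Over all genes that share was 4.6% with the block and 0.283% without it, so few would be reached in a list of this size. DESeq2 and limma-voom called 0 genes of the whole table without the block. The blocked fit placed 16 above and 16 below 0, and their median was 0.015. Genes of the fibre membrane and cytoskeleton stood near 0: mipa at -0.03 (SE 0.040), mipb at -0.03 (SE 0.050), bfsp1 at -0.01 (SE 0.059) and bfsp2 at 0.06 (SE 0.037). The lens membrane protein genes lim2.1, lim2.3, lim2.4 and lim2.5 stood at 0.06, 0.12, 0.06 and 0.11 (SE 0.065, 0.074, 0.086 and 0.093). In the replicate 2 pair these lim2 genes were higher in the mutant by 0.23, 0.33, 0.31 and 0.38. In the pairs of replicates 1 and 3 they lay between -0.08 and 0.04. Lim2.2, at 0.81 to 2.24 CPM, stood at 0.22 (SE 0.16). The gap junction genes gja3, gja8a and gja8b, which couple fibre cells, stood at 0.14, -0.10 and 0.09, the glutamine synthetase relative lgsn at -0.0003 and the galectin-like grifin at -0.10.

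The lens transcription factors gave small values as well. Hsf4, which drives crystallin and DNase expression in fibres, stood at 0.07 (SE 0.055), foxe3 at 0.06, pitx3 at -0.03, prox1a at -0.11 (SE 0.053), mafba at 0.03, sox1a and sox1b at -0.04 and -0.0019, pax6a and pax6b at -0.01 and -0.06, and six3a and six3b at -0.01 and -0.06. The RNA-binding genes tdrd7b and rbm24a, both needed for lens development in vertebrates, stood at 0.05 and 0.03, and the receptor gene epha2a at -0.04. Dnase1l1l, the nuclease that clears nuclei from zebrafish lens fibres, had 45.7, 41.9 and 43.4 CPM in wild-type and 45.9, 56.6 and 47.9 CPM in mutant replicates. It was the only gene of the list whose groups did not overlap, where 1.09% of all genes tested had the mutant higher without overlap and 0.945% lower. The pairs of replicates 1, 2 and 3 gave log2 ratios of 0.006, 0.44 and 0.14, so the groups were barely apart in replicate 1. The blocked log2 fold change was 0.20 (SE 0.084, edgeR adjusted p 0.939).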

How the data were processed

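The table of raw counts, 1 line per Ensembl gene, was used as deposited; a normalized signal, also deposited by the authors, equals the counts divided by 1 size factor per library to within 0.164. The submitters' processing notes list GRCz11, DESeq2, Subread, featureCounts 1.6.4 and STAR 2.7.3 but no roles, and for annotation release and strand setting the sources used here give nothing. RNA came from a Qiagen RNeasy or a Zymo Direct-zol kit, per the labels, which do not say which library had which. Tests ran on the raw counts in edgeR 4.0.16 (R 4.3.3): TMM normalization, filterByExpr by genotype, robust quasi-likelihood F test, 2-sided, genotype as the only term. CPM uses the TMM factors. Alternatives used DESeq2 1.42.0, limma-voom (limma 3.58.1), other scalings and filters, a replicate block and fits without 1 library; the authors' normalized signal entered only ratios of class sums. The labels number the replicates, and equal numbers were treated as paired since, after subtracting genotype means, they correlated at 0.863, 0.579 and 0.744; wild-type replicate 2 with mutant replicate 3 gave 0.418 and wild-type replicate 3 with mutant replicate 2 gave 0.365. No library pair was a duplicate (chi-square per gene at least 4.79). Log2 ratios between pairs and between replicates used CPM plus 0.01. A block of genes allowed at most 5 genes between members. Members and lists were chosen with earlier results of these data known. Of 98 list names 93 matched 1 gene; gje1a and maf were left out of the lens list. Genes named are the alpha members, the most-read and smallest-p members of each class, lens genes of at least 1 CPM and srrm4; other members with levels or overlaps of interest were named after their values were seen. The procedure was tested on data simulated with the spread left after fitting the replicate number. How many of the changed genes it found is not given here. Promoter and protein sequences were not used here. Figures were drawn with matplotlib 3.10.9.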

Additional observations from a re-analysis of the deposited data

How the results depend on the processing

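No crystallin passed under any of the alternatives run. The number of genes passing in the whole table was 0 in most, 17 in DESeq2 with the replicate block and 2 in edgeR with the block but without the replicate 2 libraries, a fit added after the data had been seen; no member was among them. The median log2 fold change of the members lay between -0.23 (without mutant replicate 1) and 0.21 (without wild-type replicate 1) when 1 library was left out, since 1 genotype then lacks a replicate number that the other keeps. Fits with the replicate block and without a pair gave -0.025, 0.0022 and 0.040 for replicates 1, 2 and 3. The block changed no call among the members: in edgeR their median was 0.0021 with it against 0.012, and their smallest adjusted p with it was 0.939. Other scalings, filters and tools kept that median between -0.0038 and 0.026. Summing the crygm2d copies gave 0.053, since 20 rows near 0 became 1. Of up to 51 named genes, 0 to 4 changed sign under a change of scaling, filter, tool or block, 5 to 10 when the block was kept without a pair, and 7 to 21 when 1 library was left out; a change of sign was counted as a reversal only where an estimate exceeded its standard error in both fits or passed, which happened for none. Depth limits the genes under 1 CPM, possible sharing of reads limits single crygm2d rows, and overlapping spans limit the members that have them. Motif counts in promoters were not run.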
